A study of Mus musculus with 6 samples.

Results

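The transcriptome of mouse primary myoblasts given the HIF-2α inhibitor PT2385 at 1% pO2 was compared with that of vehicle-treated myoblasts at the same pO2, which are 2 of the 6 RNA-seq libraries of the series. The genes compared were chosen by level: 11967 of the 54834 genes listed had a mean of at least 1 FPKM (fragments counted for a gene, divided by transcript length and library depth) over the 6 libraries. Of these, 42 were listed at exactly 0 in one of the 1% pO2 libraries and at 5 FPKM or more in the other and were set apart, which left 11925 genes, 10850 of them protein-coding. All groups were Pax7-ZSGreen primary myoblasts in growth medium, the dividing progeny of sorted muscle stem cells, adapted to 20%, 4% or 1% pO2 for more than 2 weeks. PT2385 was given at 1 uM, or DMSO at 0.1% as the vehicle, for 48 h at the same pO2. By the supplementary methods, 9 cultures from 3 temporal replicates gave the RNA of a condition, which was mixed into 1 library. The spread between cultures therefore cannot be seen, and no p-value is given for the 1% pO2 pair. Differences are PT2385 minus vehicle on the log2(FPKM + 1) scale, so a positive value means a higher level with PT2385. Because 1 is added to every value, this scale makes fold changes of genes at low levels look smaller than they were.

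HIF-2α, encoded by Epas1, is one of the oxygen-labile subunits of the hypoxia-inducible factors. In low oxygen it escapes hydroxylation by the prolyl hydroxylases and destruction through VHL, pairs with ARNT and binds DNA at the sequence RCGTG. PT2385 occupies a pocket in HIF-2α and keeps it from pairing with ARNT, and leaves HIF-1α, which drives most glycolytic genes in hypoxia, free to act. In muscle stem cells HIF-2α has been tied to quiescence and to slower proliferation.

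The cells carried the markers of myoblasts. Myod1, the master regulator of the myogenic lineage, stood at 571 FPKM in vehicle and 625 FPKM with PT2385 at 1% pO2, and Des, the muscle intermediate filament, at 124 and 115 FPKM. Cdh15, the myoblast cadherin, was at 27.6 FPKM in both, and Pax7 at 18.6 and 16.5 FPKM. Myf5, which is usually found in such cells, was nearly absent, at 0.023 FPKM in vehicle and listed at 0 with PT2385, and it did not pass 0.48 FPKM in any of the 6 libraries. From the step between the lowest values, sequencing depth was estimated to be nearly the same in both 1% pO2 libraries, where 1 fragment on a transcript of 1 kb was worth about 0.0443 FPKM in vehicle and 0.0446 FPKM with PT2385, against 0.0428 to 0.0501 FPKM in the other libraries. The shallowest was the 4% pO2 PT2385 library. The fragments behind a value were estimated from that step and the length of the gene's shortest coding transcript, or the longest where stated. The 95% intervals given with fold changes below are exact binomial intervals on those fragments and cover counting error only.

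The response at 1% pO2 was small. Of all 11925 genes, 31 (0.26%) were at least 2-fold higher with PT2385 and 23 (0.193%) at least 2-fold lower, on the log2(FPKM + 1) scale. Only 9 protein-coding genes (0.0829%) passed that limit upwards and 6 (0.0553%) downwards, since 22 of the 54 genes past it were processed pseudogenes. Of these protein-coding genes, Fabp4, Cidec, Gsta1, a predicted gene and Mamdc4 passed the filter only through the 1% pO2 library in which they were high. The counts are therefore a description and no support for a change. At a limit of 1.5-fold, which is taken on this scale wherever genes are counted against it, 43 protein-coding genes (0.396%) were higher and 42 (0.387%) lower, 58 of these 85 with a mean under 5 FPKM. For 54 of the 85 the counting interval of the ratio left out 1. The middle of the distribution hardly moved, with a median difference over all genes of -0.003. Among protein-coding genes the SD of the difference narrowed from 0.25 at a mean of 1 to 5 FPKM to 0.08 above 100 FPKM. The same pair at 4% pO2 had 69 protein-coding genes at least 1.5-fold higher and 107 lower, and at 20% pO2 45 and 65, which is 0.636%, 0.986%, 0.415% and 0.599% of the genes compared.

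**Figure D1:**
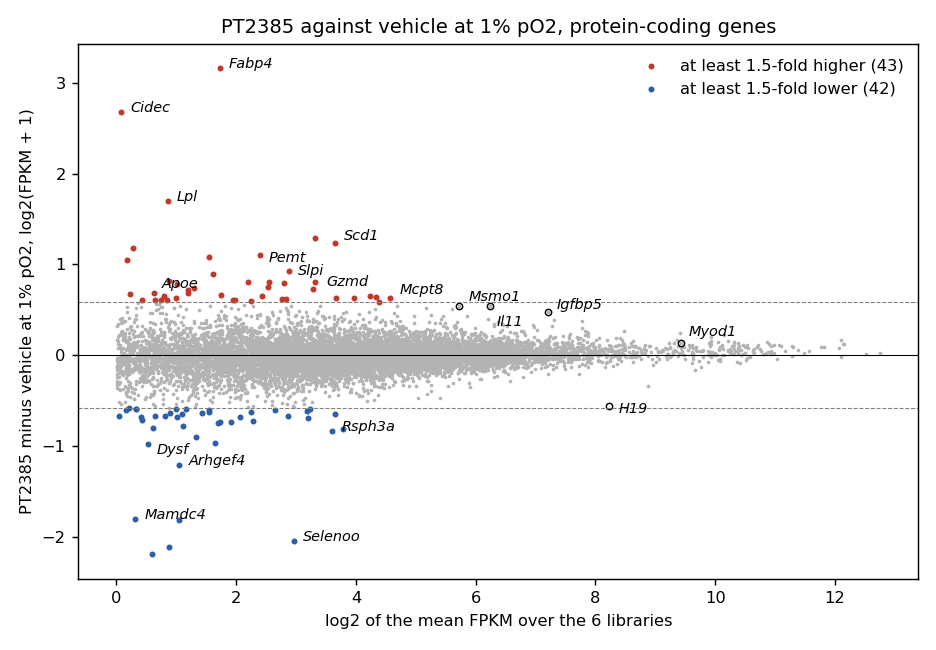
Each point is a protein-coding gene, by its mean level over the 6 libraries (log2 FPKM, horizontal) and its difference between the PT2385 and vehicle libraries at 1% pO2 (log2(FPKM + 1), vertical). Red points are the 43 genes at least 1.5-fold higher and blue points the 42 at least 1.5-fold lower (dashed lines), and open circles mark further genes named in the text. H19, a noncoding gene, is added to the plot. Fabp4, Cidec and Lpl stand highest, at 3.16, 2.68 and 1.70.

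The 3 protein-coding genes that stood highest were all on a list of adipocyte markers, which need not be particular to fat cells. Fabp4, the fatty acid carrier of adipocytes and macrophages, was at 1.05 FPKM in the 1% pO2 vehicle library and 17.3 FPKM in the 1% pO2 PT2385 library. In the other libraries it was at 0.30 (vehicle) and 0.66 (PT2385) FPKM at 20% pO2, and at 0.24 and 0.28 FPKM at 4% pO2. About 17 and 281 fragments lay behind the pair at 1% pO2, which put it at 16.5-fold (95% interval 10.2 to 29.0). Cidec, a protein of lipid droplet fusion, was at 0.087 FPKM in vehicle and 5.97 FPKM with PT2385 at 1% pO2, was listed at 0 in both 4% pO2 libraries, and was at 0.22 and 0.086 FPKM at 20% pO2. On its longest coding transcript that was about 3 fragments against 207, a ratio of 68.9 (95% interval 23.5 to 340). On its shortest it was about 0 against 28 fragments, with a 95% lower bound of 7.16. Lpl, the lipoprotein lipase that frees fatty acids for uptake, was at 0.65 FPKM in vehicle and 4.35 FPKM with PT2385 at 1% pO2, 6.70-fold higher (95% interval 5.06 to 8.96). At the other levels Lpl was slightly lower with PT2385, at 1.09 and 0.84 FPKM at 4% pO2 and at 2.11 and 1.84 FPKM at 20% pO2. The PT2385 library at 1% pO2 thus held the highest value of the 6 for each of these genes.

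The other adipocyte markers differed less or stood at very low levels. Of the list's 11 members 6 passed the filter, and all 6 of these were higher with PT2385 at 1% pO2, with a median difference of 0.99, where 48.6% of all genes were higher. Fabp4 and Cidec passed only through the library in which they were high, so the count and the median are no support for a change of the list. With a mean of at least 5 FPKM only Car3 was left, with a difference of 0.16. Pparg, the nuclear receptor that directs fat cell formation, was at 1.79 and 2.41 FPKM (difference 0.29), Cebpa, its partner factor, at 1.76 and 1.96 FPKM (0.10), and Car3, a carbonic anhydrase shared by fat and slow muscle, at 7.79 and 8.81 FPKM. These 3 members differed far less than Fabp4, Cidec and Lpl. The 5 members under the filter were Adipoq, Plin1, Cfd, Retn and Lep. The hormone gene Adipoq was at 0.040 FPKM in vehicle and 1.47 FPKM with PT2385 at 1% pO2, about 1 fragment against 37 on its longest coding transcript, a ratio of 37.3 (95% interval 6.30 to 1514). On its shortest it was about 0 against 12 fragments, with a 95% lower bound of 2.80. Plin1, the coat protein of the fat cell's lipid droplet, was at 0.092 and 0.79 FPKM. Cfd, Retn and Lep were listed at 0 in every library except the 1% pO2 PT2385 library, where they reached 0.19, 0.19 and 0.014 FPKM, values of about 4 fragments or fewer. Summed over the 11 markers, the level was 13.3 FPKM in the 1% pO2 vehicle library and 43.5 FPKM in the PT2385 library, against 11.1 to 15.01 FPKM in the other 4. Most of that rise lay in Fabp4, Cidec and Lpl, so the sum is no support for a change of the list either. In a bulk sample a change in the share of cells of one type and a change in the RNA per cell cannot be told apart.

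Among the 11068 protein-coding genes under the filter, 7 were at least 2-fold higher with PT2385 at 1% pO2, and the 3 highest were Mgst1, Cd36 and Adipoq, picked out after their values were seen. Mgst1, a microsomal glutathione transferase, was at 0.12 FPKM in vehicle and 2.91 FPKM with PT2385, and the highest other library was at 0.15 FPKM. Cd36, a fatty acid transporter of fat, muscle and endothelial cells, was listed at 0 in vehicle and at 1.60 FPKM with PT2385, with 0.076 to 0.19 FPKM elsewhere. The marker lists of other cell types had no increase of the size of the adipocyte sum, whose rise lay mostly in Fabp4, Cidec and Lpl. At 1% pO2 the summed level was 5.11 FPKM in vehicle and 4.56 FPKM with PT2385 for 14 endothelial markers, and 22.04 and 23.9 FPKM for 18 leukocyte markers. For 15 fibroblast and fibro-adipogenic progenitor (FAP) markers it was 26.5 and 27.7 FPKM, for 13 pericyte and smooth muscle markers 283 and 263 FPKM, and for 9 Schwann and glial markers 21.98 and 18.3 FPKM. Single genes made up much of such sums, so they do not give the level of a cell type. The pericyte list includes Des, named above as a myoblast marker (124 and 115 FPKM). Gsn was at 14.4 and 14.2 FPKM in the FAP list, and Pmp22 at 20.3 and 16.8 FPKM in the Schwann list. The part of a small admixture of other cells in the adipocyte values was not tested.

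**Figure D2:**
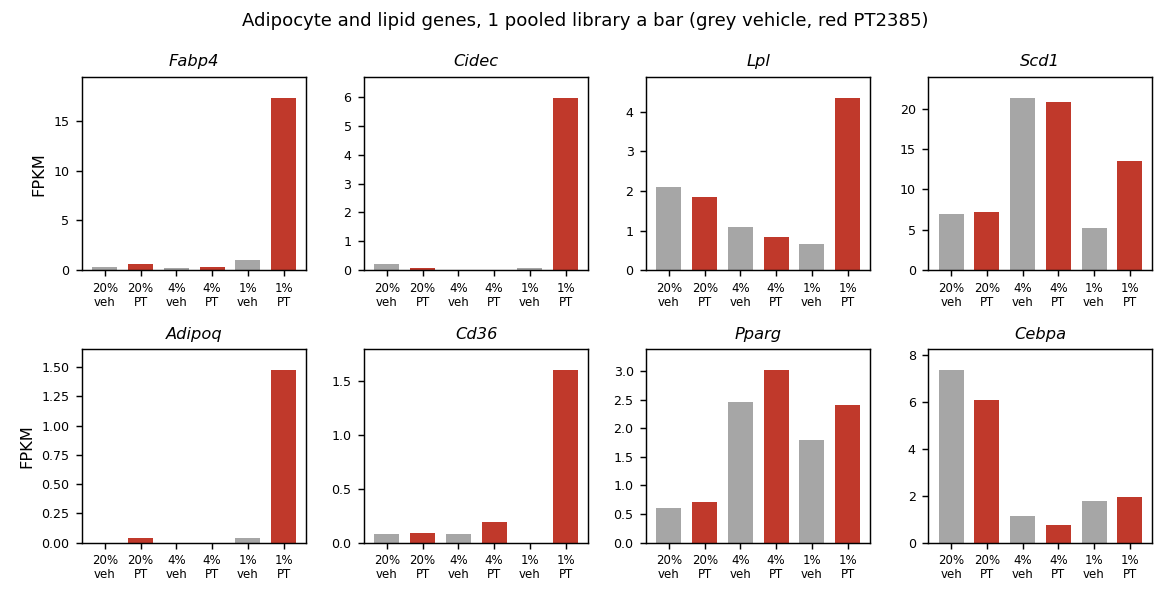
Level in FPKM (vertical axis, from 0, own scale in each panel) of 8 adipocyte and lipid genes in the 6 libraries, 1 pooled library a bar, grey for vehicle and red for PT2385 at 20%, 4% and 1% pO2. There are no error bars, since there is 1 library per condition. Fabp4, Cidec, Lpl, Adipoq and Cd36 are highest in the 1% pO2 PT2385 library, whereas Scd1 is highest at 4% pO2 and Cebpa at 20% pO2.

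Among genes of lipid synthesis 1 stood out at 1% pO2. Scd1, the desaturase that makes oleate, was at 5.197 FPKM in vehicle and 13.5 FPKM with PT2385, 2.61-fold higher (95% interval 1.47 to 4.59). At 4% pO2 it was at 21.3 and 20.8 FPKM and at 20% pO2 at 6.93 and 7.203 FPKM, so that no difference of this kind was seen at those levels. Of 23 measured genes of fatty acid synthesis and storage, 17 were higher and 6 lower at 1% pO2, with a median difference of 0.10, where 48.6% of all genes were higher. Scd1 alone passed 1.5-fold. Fasn, the fatty acid synthase, was at 134 and 139 FPKM, and Pnpla2, the first lipase of stored fat, at 15.5 and 19.2 FPKM. Gpam, which starts triglyceride synthesis, lay on the other side at 4.83 and 3.63 FPKM.

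Nearly all genes of the cholesterol pathway were higher by a small amount. With PT2385 at 1% pO2, 24 of its 25 measured genes were higher and 1 (Mylip, which marks the LDL receptor for destruction) was lower, and the median difference was 0.20. Of all genes 48.6% were higher and 51% lower at 1% pO2, with a median of -0.003. At 4% pO2, where 50.2% of all genes were higher and 49.4% lower, the list was split, with 13 higher, 12 lower and a median of 0.001. At 20% pO2, where 51.5% of all genes were higher and 48.3% lower, 17 were higher and 8 lower, with a median of 0.05. Lss, which closes the sterol ring, was at 7.85 FPKM in vehicle and 12.7 FPKM with PT2385, the only member past 1.5-fold (1.62-fold, with 95% intervals of 0.95 to 2.71 on its shortest coding transcript and 1.48 to 1.77 on its longest). Msmo1, a sterol methyl oxidase, was at 34.4 and 50.5 FPKM (difference 0.54). Pmvk, a mevalonate pathway kinase, was at 6.80 and 9.40 FPKM (0.41). The transcription factor of the pathway, Srebf2, was at 61.4 and 63.1 FPKM (0.04). In vehicle these genes were lower at 1% than at 4% pO2, where for example Msmo1 was at 104 FPKM and Lss at 31.7 FPKM, and the PT2385 values at 1% pO2 stayed below those levels.

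Other genes that stood high at 1% pO2 belonged to phospholipid, detoxification and protease groups. Pemt, which methylates phosphatidylethanolamine to phosphatidylcholine, was at 3.82 FPKM in vehicle and 9.39 FPKM with PT2385, 2.46-fold higher (95% interval 1.41 to 4.31), and between 4.28 and 4.99 FPKM in the other 4 libraries. Apoe, the lipid-carrying apolipoprotein, picked out after its value was seen, was at 1.34 and 3.36 FPKM, and between 2.08 and 4.82 FPKM elsewhere, so its vehicle value at 1% pO2 was the lowest of the 6. The glutathione transferases Gsta1 and Gsta4 were at 1.04 and 20.9 FPKM in vehicle and at 3.23 and 33.1 FPKM with PT2385. Their differences were 1.05 and 0.64, with 0.12 and 0.11 at 4% pO2 and -0.23 and -0.14 at 20% pO2. Gsta1 passed the filter only through the 1% pO2 PT2385 library, in which it was high. The quinone reductase Nqo1 was at 34.5 and 43.4 FPKM (0.32). Of 27 NRF2 and antioxidant genes 22 were higher, where 48.6% of all genes were, and none passed 1.5-fold. Their median was 0.06, and 0.025 when both libraries were scaled to the same sum.

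Serine protease genes in one cluster on chromosome 14 were higher with PT2385 at every pO2. Gzmd, which encodes a granzyme of natural killer and decidual cells, was at 9.62 FPKM in vehicle and 17.5 FPKM with PT2385 at 1% pO2, 1.82-fold higher (95% interval 1.51 to 2.204). Mcpt8, known as a basophil protease, was at 26.1 and 41.0 FPKM, and the neighbouring Gzme, picked out after its value was seen, at 30.3 and 44.4 FPKM. Their differences at 1% pO2 were 0.80, 0.64 and 0.54, those at 4% pO2 0.33, 0.37 and 0.34, and those at 20% pO2 0.23, 0.31 and 0.31. These genes are related copies, and the counting could split fragments among those that are most alike. Slpi, a secreted inhibitor of serine proteases, was at 6.17 and 12.6 FPKM at 1% pO2, 2.04-fold higher (95% interval 1.42 to 3.03), and was higher with PT2385 at 4% pO2 (6.19 and 9.63 FPKM) and at 20% pO2 (3.24 and 6.19 FPKM) too. Further genes among the 15 highest were Ociad2, a mitochondrial protein gene (7.29 and 12.8 FPKM), Zbtb20, a zinc finger repressor (5.18 and 9.43 FPKM), and Ascc3, a helicase of RNA quality control (9.57 and 15.4 FPKM). Ociad2 differed by 0.10 at 4% and 0.12 at 20% pO2, and Zbtb20 by 0.06 and -0.29.

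RNA of the drug's target was barely detected in these libraries. Epas1 was at 0.058 FPKM in vehicle and 0.12 FPKM with PT2385 at 1% pO2, about 7 and 14 fragments, a ratio of 2.02 whose 95% interval (0.76 to 5.91) includes 1. It was listed at 0 in the 4% pO2 vehicle library and reached 0.27 FPKM at most, in the 20% pO2 vehicle library. Hif1a, by contrast, was at 41.3 and 42.2 FPKM at 1% pO2, and the shared partner Arnt at 14.9 and 13.7 FPKM. The HIF-2α protein, on which the inhibitor acts, was not measured in these libraries. By immunostaining, the study detected the protein in muscle stem cells on myofibres kept in hypoxia. Its level depends on its stability as well as on the transcript. How far the differences given here rest on HIF-2α was not tested. No member of the 8 measured HIF subunits and oxygen sensors passed 1.5-fold, and their differences ran from -0.11 to 0.10.

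Genes that hypoxia is known to drive through the HIFs stayed close to their vehicle level at 1% pO2. Of 18 measured genes taken as preferring HIF-2, 6 were higher and 12 lower (48.6% and 51% of all genes), with a median of -0.02 and none past 1.5-fold. Edn1, the endothelin-1 gene, had the lowest difference, at 2.31 FPKM in vehicle and 1.65 FPKM with PT2385 (-0.32), and Lox, the collagen cross-linking oxidase, the highest, at 49.3 and 58.4 FPKM (0.24). Vegfa was at 353 and 337 FPKM, Angptl4, an inhibitor of lipoprotein lipase, at 28.6 and 26.2 FPKM, and Adm, the adrenomedullin gene, at 110 and 107 FPKM. Of 32 genes taken as preferring HIF-1, 18 were higher and 14 lower, with a median of 0.01 (-0.02 when both libraries were scaled to the same sum). Ldha, the lactate dehydrogenase, was at 2792 and 3015 FPKM, Slc2a1, the glucose transporter, at 352 and 374 FPKM, and Car9, the carbonic anhydrase of hypoxic cells, at 76.3 and 67.5 FPKM. The 8 measured genes of the renin-angiotensin system had differences of -0.08 to 0.18.

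Ace, the angiotensin converting enzyme, lay under the filter, with a mean of 0.85 FPKM over the 6 libraries, and was lower with PT2385. At 1% pO2 it was at 1.48 FPKM in vehicle and 0.66 FPKM with PT2385, about 75 and 33 fragments, 2.23-fold lower (95% interval 1.48 to 3.504). At 4% pO2 it was at 1.44 and 0.69 FPKM, and at 20% pO2 at 0.49 and 0.34 FPKM, so both hypoxic vehicle libraries lay above all 3 PT2385 libraries. Dysf, the dysferlin gene of membrane repair, had this pattern at a higher level. It was at 3.29 and 1.19 FPKM at 1% pO2, 2.77-fold lower with PT2385 (95% interval 2.31 to 3.32), at 2.53 and 1.03 FPKM at 4% pO2, and at 0.34 and 0.27 FPKM at 20% pO2. Ddc, the decarboxylase that makes dopamine and serotonin, was at 2.85 and 1.57 FPKM at 1% pO2 (-0.58), with differences of -0.69 at 4% and -0.46 at 20% pO2. Upp2, a uridine phosphorylase, was at 3.46 and 2.28 FPKM (-0.45), with -0.88 and -0.24. For each of these 4 genes the PT2385 library was the lower of the pair at every pO2. Dysf, Ddc and Upp2 were set beside Ace for that pattern, so the agreement is no test.

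**Figure D3:**
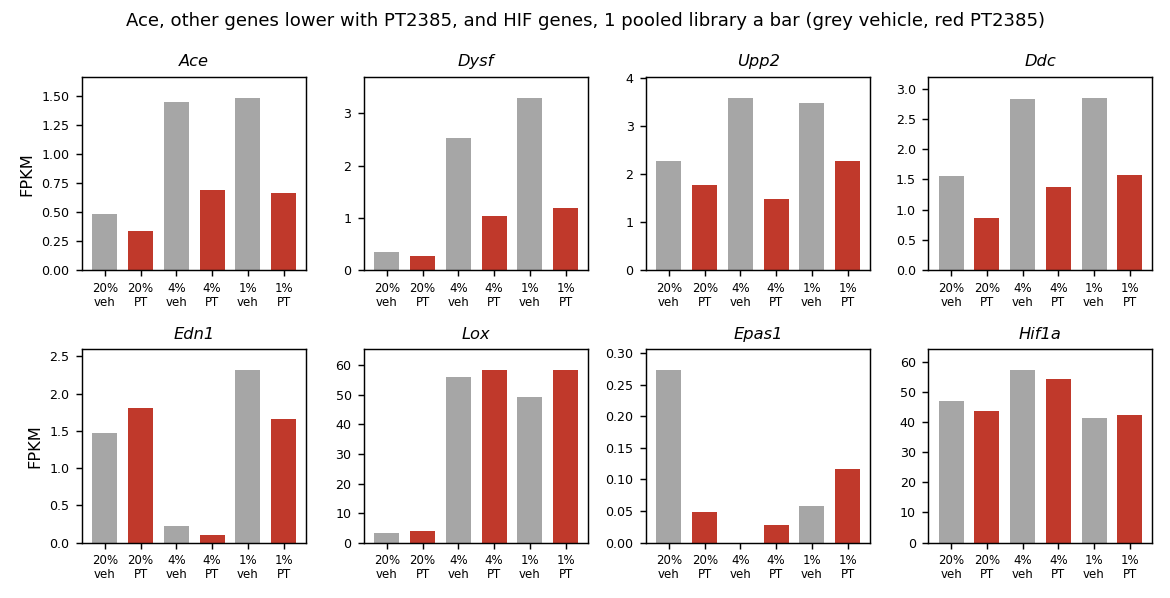
Level in FPKM (vertical axis, from 0, own scale in each panel) of Ace, of 3 other genes that were lower with PT2385 at each pO2 (Dysf, Upp2 and Ddc) and of 4 HIF-linked genes (Edn1, Lox, Epas1 and Hif1a), 1 pooled library a bar, grey for vehicle and red for PT2385, with no error bars. Ace and Dysf are highest in the 4% and 1% pO2 vehicle libraries, and Hif1a stays between 41.3 and 57.2 FPKM in all 6. Dysf, Upp2 and Ddc are shown for their shared direction, which is therefore no test.

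The promoters of Ace and of 4 genes among the 15 lowest at 1% pO2 are shown because PT2385 blocks a factor that binds RCGTG. They are the RefSeq windows (build GRCm38.p6) of 300 bases that end shortly after a transcript's start, written 5′ to 3′ on the gene's strand, with ACGTG or GCGTG on either strand in capitals (CACGT and CACGC are their reverse complements, and the strands overlap within CACGTG). Ace (chr11:105967698-105967997, plus strand) is the first of 2 windows of this gene, neither of which holds these letters. The windows are short, and sequence further upstream was not searched, so this says nothing of the rest of the Ace promoter. In a longer stretch of that promoter the study reports RCGTG motifs. It found HIF-2α bound to the regions around them in hypoxic mouse myoblasts, by chromatin immunoprecipitation. The 4 others were chosen because they hold a match: of the 11 lowest genes named, 10 had a window and 7 of the 10 held one, while Tnni1, Gas6 and Vps45 held none. Selenoo (chr15:89088788-89089087, plus strand) holds 1 match, Rsph3a (chr17:7945364-7945663, plus strand) 3, Gga3 (chr11:115603867-115604166, minus strand) 2 and Cox7a1 (chr7:30183921-30184220, plus strand) 3.
Ace: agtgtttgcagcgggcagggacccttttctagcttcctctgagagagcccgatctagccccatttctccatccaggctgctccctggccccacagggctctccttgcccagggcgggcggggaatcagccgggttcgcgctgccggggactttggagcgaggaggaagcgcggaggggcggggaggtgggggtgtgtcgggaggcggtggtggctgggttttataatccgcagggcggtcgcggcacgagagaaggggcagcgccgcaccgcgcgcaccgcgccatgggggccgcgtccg
Selenoo: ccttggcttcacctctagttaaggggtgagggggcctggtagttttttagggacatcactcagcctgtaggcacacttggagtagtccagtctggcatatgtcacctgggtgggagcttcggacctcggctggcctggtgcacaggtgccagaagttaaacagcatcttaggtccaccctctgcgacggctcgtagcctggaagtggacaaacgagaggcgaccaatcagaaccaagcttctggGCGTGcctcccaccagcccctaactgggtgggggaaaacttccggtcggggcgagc
Rsph3a: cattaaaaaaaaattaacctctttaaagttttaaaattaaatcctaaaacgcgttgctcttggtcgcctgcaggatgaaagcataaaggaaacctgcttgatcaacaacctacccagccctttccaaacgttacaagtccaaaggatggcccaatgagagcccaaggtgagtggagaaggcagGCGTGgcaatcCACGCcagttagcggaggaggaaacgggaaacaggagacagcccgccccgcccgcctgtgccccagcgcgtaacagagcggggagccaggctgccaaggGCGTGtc
Gga3: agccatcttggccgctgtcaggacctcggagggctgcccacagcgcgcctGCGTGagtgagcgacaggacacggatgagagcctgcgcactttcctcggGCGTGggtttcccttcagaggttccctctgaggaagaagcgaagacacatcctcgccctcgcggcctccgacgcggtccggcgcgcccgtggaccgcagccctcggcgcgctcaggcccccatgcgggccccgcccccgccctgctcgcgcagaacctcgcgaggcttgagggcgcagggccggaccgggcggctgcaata
Cox7a1: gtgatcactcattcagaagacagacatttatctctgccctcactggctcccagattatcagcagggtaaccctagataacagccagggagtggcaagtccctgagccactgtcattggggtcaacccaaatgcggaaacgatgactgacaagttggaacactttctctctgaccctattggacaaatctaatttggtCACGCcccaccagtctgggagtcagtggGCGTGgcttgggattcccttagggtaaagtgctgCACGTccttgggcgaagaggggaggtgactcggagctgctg

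A match to these letters was common, and its share was not higher among the genes that were lower. Of the protein-coding genes compared, 8620 had a window in the table and 70.2% of them held a match. The share was 17 of 31 (54.8%) for genes at least 1.5-fold lower with PT2385 at 1% pO2 and 17 of 26 (65.4%) for those at least 1.5-fold higher. Of all 32851 windows listed, 43.8% held one. A match is a description of the sequence and not a site.

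Selenoo, a mitochondrial selenoprotein that adds AMP to other proteins, was at 11.4 FPKM in vehicle and 2.00 FPKM with PT2385, 5.70-fold lower (95% interval 4.61 to 7.15). It was lower with PT2385 at 4% pO2 (4.47 and 2.72 FPKM) and at 20% pO2 (19.7 and 6.38 FPKM) as well. Mamdc4 and Arhgef4 (the latter a guanine nucleotide exchange factor) had means under 5 FPKM and were picked out after their values were seen. Mamdc4 was at 3.61 and 0.32 FPKM (11.3-fold lower, 95% interval 7.37 to 18.1) and Arhgef4 at 5.46 and 1.80 FPKM (3.04-fold lower, 95% interval 2.12 to 4.39). Mamdc4 was lower at 4% and 20% pO2 too, by differences of -0.41 and -0.73, whereas Arhgef4 had 0.26 and 0.29 there. Mamdc4 passed the filter only through the 1% pO2 vehicle library, in which it was high. The other 3 protein-coding genes past the 2-fold limit were listed at 0 with PT2385, a value that can be a failed estimate, and they are given as values only. They were a predicted gene, Snurf and Mrln. Snurf, which shares its transcript with Snrpn, was at 3.33 FPKM in vehicle, about 3 fragments against 0, and the 95% interval of its ratio (0 to 2.44) includes 1. It was listed at 0 in both 4% pO2 libraries too. Mrln, the myoregulin gene of calcium handling, was at 2.52 FPKM in vehicle, about 8 fragments, with 0.48 to 4.13 FPKM in the other 4 libraries.

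Rsph3a, a radial spoke protein of cilia, was at 13.9 and 7.38 FPKM (-0.83), and Gga3, an adaptor for Golgi to endosome traffic, at 14.0 and 7.54 FPKM (-0.81). Neither had that sign elsewhere, with 0.32 and 0.17 at 4% pO2 and 0.15 and 0.44 at 20% pO2. Cox7a1, the muscle and heart isoform of a cytochrome oxidase subunit, was at 11.3 and 7.06 FPKM (-0.61) and had differences of 0.06 and 0.28 at 4% and 20% pO2. Of 80 measured nuclear genes of all respiratory chain complexes, 61 were higher with PT2385, where 48.6% of all genes were, and Cox7a1 was the lowest. Vps45, a regulator of endosomal fusion, was at 11.5 and 7.61 FPKM (-0.54) and Aak1, a kinase of clathrin coats, at 6.16 and 3.97 FPKM (-0.53), both lower at every pO2. Gas6, the ligand of the TAM receptors, was at 1.49 and 0.66 FPKM at 1% pO2 (-0.59) and at 35.9 and 18.1 FPKM at 20% pO2 (-0.95). Integrin beta 6, Itgb6, was the lowest protein-coding gene under the filter, at 2.66 and 0.42 FPKM, and was picked out after its value was seen.

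Contractile genes were split at 1% pO2, with some troponins and myosins lower with PT2385. Of 8 measured thick filament and myosin genes, 5 were lower at 1% pO2 with a median of -0.10, where 51% of all genes were lower, against 8 of 8 with a median of -0.68 at 4% and 7 of 8 with a median of -0.63 at 20% pO2. Mylpf, the fast myosin light chain, was at 14.0 and 10.3 FPKM at 1% pO2, and its differences of -0.41, -0.72 and -0.57 at 1%, 4% and 20% pO2 had one sign. Tnni1, the slow troponin I, was at 5.92 and 3.56 FPKM at 1% pO2 (-0.60), the only one of 15 thin filament genes past 1.5-fold on the log2(FPKM + 1) scale. Of those 15, 9 were lower and 6 higher, with a median of -0.04. Tnni2 and Tnni3, the fast and cardiac isoforms, had differences of -0.43 and -0.46 (1.77- and 1.88-fold lower as plain FPKM ratios), and Tnnt1, slow troponin T, was at 34.3 and 28.0 FPKM (-0.29). Tnnc2, fast troponin C, lay on the other side at 2.21 and 2.61 FPKM (0.17), and Acta1, skeletal actin, was at 9.38 and 9.73 FPKM (0.05). Whether the differences at 1% pO2 differ from those at the other levels could not be tested with 1 library per condition.

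Regulators of differentiation and fusion were split as well. Myog, which starts terminal differentiation, was at 9.43 FPKM in vehicle and 11.2 FPKM with PT2385 (0.23; 1.19-fold, 95% interval 1.01 to 1.40), and at 4% and 20% pO2 its differences were -0.22 and -0.94. Mymx, the small fusogen of myoblasts, was at 1.25 and 2.52 FPKM (0.65) and had differences of -0.12 and -0.70 at the other levels. On its longest coding transcript that was about 18 fragments against 36, and the 95% interval of its ratio (1.116 to 3.77) left out 1, but on the shortest (0.75 to 5.15) it did not. Of 20 fusion and membrane repair genes 12 were higher and 8 lower, with a median of 0.03 (-0.003 when both libraries were scaled to the same sum), from Dysf at -0.97 to Mymx. Of 15 myogenic regulatory factors 9 were higher, with a median of 0.08, where 48.6% of all genes were higher. Among 19 genes of muscle stem cell identity 14 were lower, with a median of -0.07 and none past 1.5-fold, where 51% of all genes were lower. Pax7 itself had a difference of -0.17 at 1% pO2, -0.08 at 4% and -0.13 at 20% pO2, and Megf10, a receptor of quiescent stem cells, -0.19, -0.13 and -0.32.

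Some genes differed in the same direction at all 3 pO2 levels, where the 3 pairs share no library. H19, the imprinted noncoding RNA, was lower throughout, at 188 and 128 FPKM at 1% pO2 (1.47-fold, 95% interval 1.39 to 1.57), 125 and 79.7 FPKM at 4% and 819 and 459 FPKM at 20% pO2. The insulin-like growth factor binding proteins Igfbp5 and Igfbp2 were higher throughout, at 161 and 224 FPKM and at 175 and 221 FPKM at 1% pO2. Il11, a cytokine of the interleukin-6 family, was at 97.7 and 143 FPKM at 1% pO2, with differences of 0.54, 0.72 and 1.02 at 1%, 4% and 20% pO2. Thbd, the thrombomodulin gene, had 0.36, 0.38 and 0.51, and Cbr3, a carbonyl reductase, 0.39, 0.35 and 0.39. Mgp, the matrix Gla protein, had -0.48, -0.55 and -0.34. Lbhd1 was higher by 0.65, 1.90 and 1.07, and Osbp2, an oxysterol-binding protein, by 0.44, 0.34 and 1.23.

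**Figure D4:**
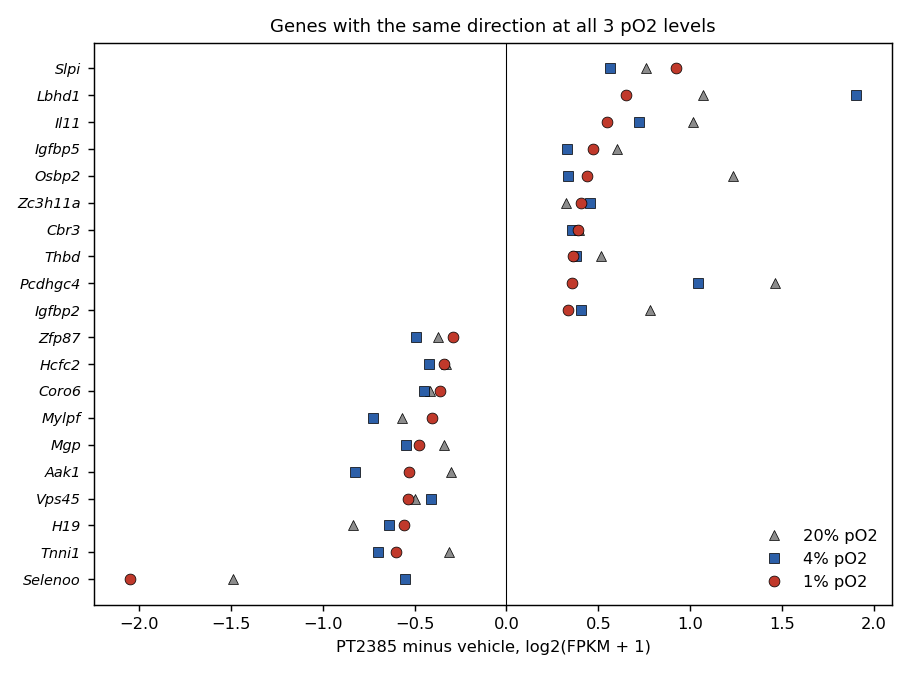
Difference between PT2385 and vehicle, log2(FPKM + 1) (horizontal), for the 10 highest and 10 lowest genes whose 3 differences have the same sign (vertical), with a triangle for 20%, a square for 4% and a circle for 1% pO2. Selenoo is the lowest at 1% pO2 at -2.05, and Slpi the highest at 0.92. The genes were chosen by these values, so their agreement is no test.

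Only the part of the PT2385 effect that the 3 pO2 levels share can be tested, with limma on all 6 libraries and 2 residual degrees of freedom. At a Benjamini-Hochberg adjusted p of 0.05, limma called 0 of 11967 genes (0%), while 1454 had an unadjusted p under 0.05. The smallest adjusted p was 0.159. The genes with the same direction at all levels did not pass either, with a limma adjusted p of 0.345 for H19 (mean difference -0.68) and 0.354 for Igfbp5 (0.47), Il11 (0.76), Slpi (0.75), Mylpf (-0.57) and Thbd (0.42). Across 10850 protein-coding genes the differences at 1% pO2 had a Pearson r of 0.15 with those at 4% and 0.16 with those at 20% pO2, and 57.5% and 58.9% of the genes had the same sign. Genes are not independent replicates, and these values are a description. Of the 43 protein-coding genes at least 1.5-fold higher at 1% pO2, 15 were higher at both other levels, 4 of the 43 passed 1.5-fold at 4% and 2 at 20% pO2. Of the 42 lower genes 16 were lower at both, 4 passed 1.5-fold at 4% and 5 at 20% pO2.

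Most collagen genes were lower with PT2385 at 1% pO2. Of 24 collagens and collagen enzymes 20 were lower, with a median of -0.09, where 51% of all genes were lower. At 4% pO2 15 of the 24 were lower, where 49.4% of all genes were, and at 20% pO2 14, where 48.3% were. Col12a1, a fibril-associated collagen, was at 17.4 and 12.6 FPKM (-0.44), Col8a1, a short-chain collagen, at 1.45 and 0.93 FPKM (-0.34), and Col4a1, of the basement membrane, at 59.9 and 48.2 FPKM (-0.31). Bgn, the proteoglycan biglycan, was at 414 and 327 FPKM (-0.34), and Vcan, the proteoglycan versican, lay on the other side at 40.1 and 54.3 FPKM (0.43). The chemokine gene Cxcl12 was at 58.1 and 43.9 FPKM, with differences of -0.40, -0.46 and -0.15 at 1%, 4% and 20% pO2. None of these genes passed 1.5-fold at 1% pO2 on the log2(FPKM + 1) scale, while the plain FPKM ratio of Col8a1 was 1.56-fold lower.

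Signalling and growth lists differed little. Of 22 Hedgehog pathway genes 19 were lower, with a median of -0.07, where 51% of all genes were lower, a share that also stands beside the counts of lower genes that follow. The kinase Ulk3 was at 13.2 and 8.99 FPKM (-0.51) and the ciliary gene Evc at 9.22 and 6.27 FPKM (-0.49), while the receptor Smo had -0.10. Among 63 genes of G2 phase and mitosis 31 were higher and 32 lower, with a median of -0.01, and Mki67, the proliferation antigen, was at 64.7 and 57.3 FPKM (-0.17). Of 55 DNA repair genes 38 were lower, with a median of -0.09, and of 40 ATF4 targets, which respond to amino acid shortage, 29 were lower, with a median of -0.05, led by Cth, the cystathionine lyase (12.6 and 9.72 FPKM, -0.34). The BMP antagonists were split, with Grem1 at 5.86 and 3.94 FPKM, Nog at 2.87 and 1.99 FPKM and Chrd at 1.64 and 2.58 FPKM, and none passed 1.5-fold on the log2(FPKM + 1) scale.

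Genes of translation and respiration were mostly higher by a small margin. This held for 76 of 85 cytosolic ribosomal protein genes (median 0.05), 61 of 78 mitochondrial ribosomal protein genes (0.07), 61 of 80 nuclear respiratory chain genes (0.06) and 34 of 44 proteasome genes (0.06). When both libraries were scaled to the same sum, these medians dropped to between 0.02 and 0.04, and the share of all genes that were higher went from 48.6% to 38.8%. Differences of abundant genes leaned upwards in general. The 5% and 95% points over protein-coding genes were -0.16 and 0.195 at a mean of 20 to 100 FPKM. Above 100 FPKM they were -0.09 and 0.17. Whether these lists differ from other genes of their level was not tested. The ornithine decarboxylase gene Odc1 was at 1386 and 1618 FPKM (0.22), and Sat1, which acetylates polyamines, at 78.8 and 104.5 FPKM (0.40). The metallothioneins Mt1 and Mt2, which bind zinc and copper, were higher at each pO2, by 0.21 and 0.39 at 1% pO2. Of 16 measured histone genes 14 were higher, with a median of 0.22, but these are near-identical copies and their values are uncertain.

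**Figure D5:**
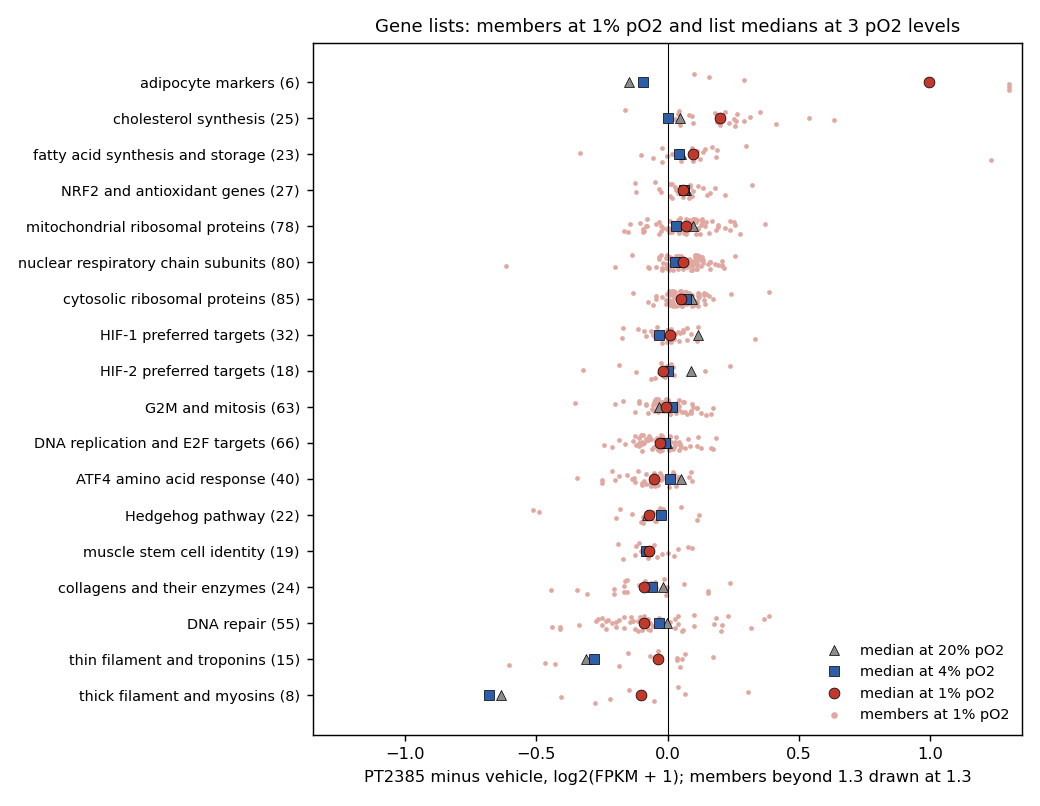
For 18 gene lists (vertical, number of measured genes in brackets), small points are the members' differences between PT2385 and vehicle at 1% pO2 (log2(FPKM + 1), horizontal, members beyond 1.3 drawn at 1.3), and large symbols the list medians at 20% (triangle), 4% (square) and 1% pO2 (circle). At 1% pO2 the median is 0.99 for the adipocyte markers and 0.20 for the cholesterol genes, and the myosin list reaches -0.68 at 4% pO2 but -0.10 at 1% pO2.

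Of the 42 genes set apart, 24 were listed at 0 in the vehicle library at 1% pO2 and 18 in the PT2385 library. Most were small RNAs, and 24 of them were snoRNA genes. Only 3 were protein-coding. Hnrnpa2b1, an abundant RNA-binding protein, was listed at 0 in the 1% pO2 vehicle library and at 581 FPKM with PT2385, and also at 0 in the 20% pO2 PT2385 library, with 633 to 829 FPKM in the other 3. Adarb1, an RNA-editing enzyme, was at 0 and 18.8 FPKM, with 5.02 to 27.6 FPKM elsewhere, and Kmt2d, a histone methyltransferase, at 14.6 FPKM in vehicle and 0 with PT2385, and at 0 also in the 20% pO2 vehicle library. A value of exactly 0 for genes that every such cell uses can be a failed estimate, and no fold change is given for them. Of the 42, 40 were listed at 0 in at least 1 further library.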

How the data were processed

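Total RNA of 9 cultures (3 temporal replicates) was pooled per condition, giving 1 library for each of 6 conditions, sequenced at BGI. The authors deposited 1 table of FPKM values, whose unit was taken to be FPKM because the submitters' processing notes name Cuffdiff 2.2.1 and the values do not contradict it. The notes also list HISAT2 2.1.0, SAMtools 1.3.1, Cufflinks and GRCm38, whereas the supplementary methods name TopHat2. Of 54834 identifiers, 54719 matched GENCODE M21. Columns were assigned by name, and 0 columns of no sample were present.

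Differences were taken on log2(FPKM + 1) for genes with a mean of at least 1. Fragments were estimated from the smallest step between low values, with a length offset of 170 bases, and 90.5% to 91.8% of low values per library lay within 0.1 of a whole fragment. Fold changes per gene are plain FPKM ratios with 95% intervals from the exact binomial (counting error alone). The effect shared by the 3 pO2 levels was tested with limma 3.58.1 (R 4.3.3), with pO2 as a block, a variance trend and Benjamini-Hochberg adjustment at 0.05, after the script was tested on simulated data. A replicate in this fit is a pool at another pO2, so its p-values measure the spread of the effect between levels. The rest was done in Python 3.11.15 with pandas 2.3.3, numpy 2.4.6, matplotlib 3.10.9 and scipy 1.17.1.

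Named by rule were the 15 highest and 15 lowest protein-coding genes at 1% pO2 with a mean of at least 5, the 10 highest and 10 lowest with one sign at all levels, up to 4 members of each list, genes set apart and genes the study names. Predicted genes were counted, not named. Further list members, and genes said to be picked out, were named after their values were seen. Gene lists and members were chosen with earlier results of these data known.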

Additional observations from a re-analysis of the deposited data

Results flagged for a closer look

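Of the 85 protein-coding genes at least 1.5-fold apart at 1% pO2, 10 were at least 1.5-fold apart in the opposite direction at another pO2, 4 of them predicted genes. In the same direction, 4 of the 43 higher and 4 of the 42 lower genes passed 1.5-fold at 4% pO2, and 2 and 5 at 20% pO2. Of all protein-coding genes compared, 0.636% were at least 1.5-fold higher and 0.986% lower at 4% pO2. At 20% pO2 these shares were 0.415% and 0.599%. The 6 genes with opposite differences that are not predicted genes follow. Whether their differences differ between levels was not tested, since each condition is 1 library. Hist1h2ak, one of the near-identical histone H2A genes, differed by 1.08 at 1% pO2 and by -0.70 at 20% pO2. The fusogen gene Mymx differed by 0.65 and -0.70, and the chemokine gene Ccl17 by 0.60 and -0.82, at the same levels. Wdr25 differed by -0.68 at 1% pO2 and 0.93 at 20% pO2. Tgfbr3l differed by -0.90 at 1% pO2 and 0.90 at 4% pO2, and Saxo2 by -0.59 and 0.76.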

How the results depend on the processing

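The 31 genes at least 2-fold higher and 23 lower at 1% pO2 became 71 and 61 with a pseudocount of 0.1, 58 and 51 with no filter on level, 7 and 7 with a mean of at least 5, 55 and 41 when genes listed at 0 were counted, 9 and 6 among protein-coding genes, and 121 and 90 at a 1.5-fold limit. Rescaling by the median ratio gave 31 and 23. Rescaling PT2385 to the same sum as vehicle (a factor of 0.977), chosen after seeing the data, gave 30 and 24. Of 52 list medians, 0 changed sign with a pseudocount of 0.1 or the median ratio, 3 with a mean of at least 5 and 9 with the same sum. The latter moved the median of all genes to -0.03, and the lists that changed sign had medians near 0. With a mean of at least 5 the adipocyte list kept 1 member, Car3, and its median was 0.16 in place of 0.99. The limma fit with the replicate block (pO2) called 0 genes, and with no replicate block it also called 0, with 52 at an unadjusted p under 0.05. It called 1 predicted gene with no variance trend, 0 with a pseudocount of 0.1 or a mean of at least 5, and 0 to 5 when the pair of one pO2 was left out: 0 without the 20% pair, 5 without the 4% pair and 2 without the 1% pair, all predicted or small RNA genes. The limma fits kept the genes set apart for a value of 0, and all those called without the 4% pair were among them. No paired analysis was possible within 1% pO2 because each arm is 1 pooled library. Low depth limits genes under 5 FPKM most.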
